A study of Rattus norvegicus with 218 samples.

Results

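Acetylcholine is made from choline and acetyl-CoA by choline acetyltransferase, the product of Chat, and is broken down in and around the synaptic cleft by acetylcholinesterase, the product of Ache. Chat and Ache were measured by 1 assay each, and they are 2 of the 165 genes on a panel run on rat neurons of the vagal dorsal motor nucleus (DMV). They were taken by gene symbol. Neurons stained for the neuronal marker NeuN were cut out of frozen brainstem sections by laser capture, as single neurons or as pools of 2 to 8 neurons, and transcripts were quantified by microfluidic RT-qPCR. All animals were adult male Sprague Dawley rats with no genetic change named in the labels. Naive rats (3 animals) had no surgery. Sham rats (4 animals) were anesthetized with ketamine/xylazine and had the femoral vessels exposed but not tied. Rats given remote ischemic preconditioning (RIPC, 3 animals) had the same anesthesia and surgery with the vessels of both hind limbs tied and released. Surgery animals were sampled 2.5 hours after reperfusion. The comparisons ask whether the genes for making and removing acetylcholine differ between treatments, between the left and right DMV, and between single neurons and pools, and how often they are found in the same neuron.

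The DMV holds preganglionic parasympathetic neurons that run in the vagus nerve, mostly to the gut and in smaller number to the heart and other organs. These neurons release acetylcholine onto nicotinic receptors of peripheral ganglion cells. Chat is the defining marker of such cholinergic motor neurons. Ache is made by cholinergic neurons and also by many neurons that receive cholinergic input, so its transcript is less specific. Slc18a3, which encodes the vesicular acetylcholine transporter, and Slc5a7, which encodes the choline transporter that supplies Chat with substrate, were not on the panel. Dopamine-, noradrenaline- and GABA-related genes of the panel are described only for their joint detection with Chat and Ache.

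The value of an assay is the threshold cycle (Ct), the amplification cycle at which the signal crosses a set level. A lower Ct means more transcript. A gene is called detected where it had a Ct. An empty cell of the table is read as under the detection limit, which the paper holds to be its main source. Repeat runs, described below, did not always give the same call. Of 213 samples, 186 had a value in at least 25% of the 168 assays and were used, namely 98 single neurons and 88 pools. These samples had 43 to 149 assays with a value, with a median of 69 in single neurons and 96 in pools. Level is used below for the Ct of a gene set against the median Ct of the 35 most often detected genes in the same sample, as the median minus the Ct, so that it is in cycles and rises with the amount of transcript. Ache is among those 35 genes. Levels of Chat and of Ache are not set against each other as amounts, because the assays may differ in efficiency. Single neurons were very unevenly spread, with 54 of the 57 naive ones from naive replicate 3, so treatments, sides and kinds of sample were tested over animals, apart from 1 Fisher's exact test over pools, while some values are pooled over neurons as a description. Neuronal genes had values in nearly all of the single neurons, with Eno2, the neuronal enolase, detected in 93.9% and Camk2a, a kinase of excitatory neurons, in 96.9%. The astrocyte gene Gfap had a value in 80.6% of single neurons and 77.3% of pools, and no other astrocyte, microglial, oligodendrocyte or endothelial marker from the lists used was on the panel.

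Ache was detected in more samples than Chat. In single neurons Ache had a value in 89 of 98 (90.8%, Wilson 95% interval 83.5% to 95.1%) and Chat in 68 of 98 (69.4%, 59.7% to 77.6%). In pools Ache was detected in 79 of 88 (89.8%, 81.7% to 94.5%) and Chat in 72 of 88 (81.8%, 72.5% to 88.5%). By share of single neurons with a value, Ache ranked 13 and Chat 46 among the 165 genes, for which the median was 40.8%. The intervals cover counting error over samples only, since neurons of an animal are not independent of each other.

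Where they were detected, both transcripts gave early Ct values. In single neurons the Ct of Chat was 9.87 at the lowest, 13.6 at the median and 24.3 at the highest, and that of Ache was 8.42, 15.1 and 20.3. In pools the Ct of Chat ran from 8.77 over a median of 12.9 to 23.5, and that of Ache from 9.29 over 13.1 to 25.2. Only 3 of 140 Chat values and 3 of 168 Ache values lay above 20 cycles, against 4.58% of all values on the panel, so few calls of either gene rested on late amplification. The level of Chat had a long lower tail in single neurons, from -8.83 through a median of 0.57 to 2.73. The level of Ache ran from -5.73 through -0.55 to 1.25.

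**Figure D1:**
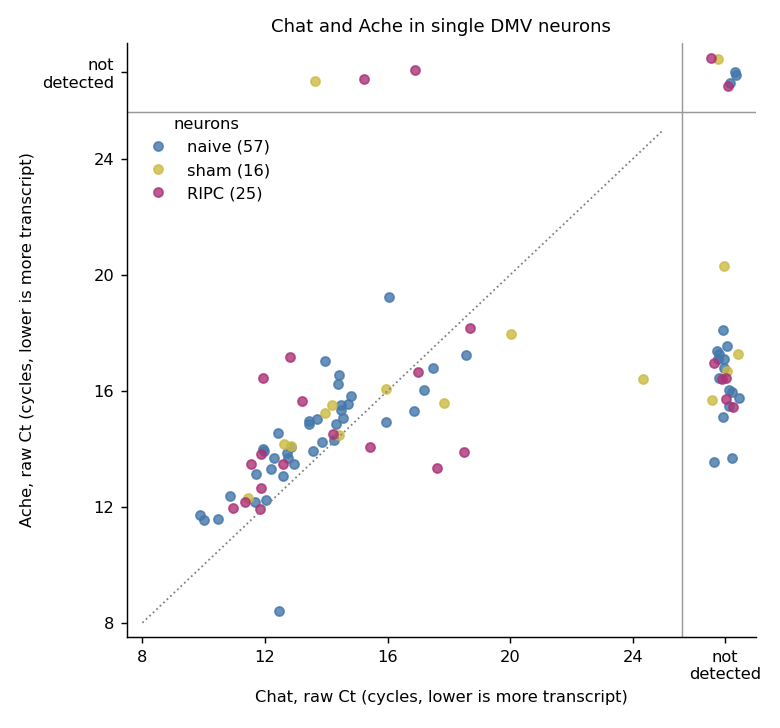
Raw Ct of Chat (x axis) against raw Ct of Ache (y axis) in cycles for the 98 single neurons, coloured by treatment, with neurons lacking a value placed in the bands marked not detected and jittered there. The dotted line marks equal Ct. Both genes had a value in 65 neurons, 24 neurons lie in the right band with Ache alone, and 3 lie in the upper band with Chat alone.

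Joint detection was lopsided, as were the shares of the genes taken singly (90.8% for Ache, 69.4% for Chat). Of the 98 single neurons, 65 had both transcripts (66.3%, 56.5% to 74.9%), 24 had Ache without Chat, 3 had Chat without Ache and 6 had neither. Independent detection of the genes at those shares would give 63.0% of neurons with both. In naive rats 39 of 57 neurons had both, 15 had Ache alone and none had Chat alone. An upper limit of 5.26% (3 divided by the number of neurons) would hold for independent neurons. Of the 57 neurons, however, 54 were from naive replicate 3. In sham rats the counts were 10 with both, 4 with Ache alone, 1 with Chat alone and 1 with neither. In RIPC rats they were 16, 5, 2 and 2. Pooled over neurons, 68.4%, 62.5% and 64.0% of naive, sham and RIPC neurons held both. Independent detection would give 64.8%, 60.2% and 60.5%. In animals with at least 3 neurons the share with both ran from 54.5% to 75.0%. It was not tested between treatments.

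Within animals, Ache was more often detected in neurons with Chat than in neurons without it, but the difference did not pass the test. In the 5 animals with at least 2 neurons of each kind, Ache was found in 97.1% ± 6.39 (SD, n = 5 animals) of neurons with Chat and in 74.8% ± 18.5 of neurons without Chat. Ache was found in all neurons with Chat in naive replicate 3 (37 neurons), sham replicate 1 (4), sham replicate 4 (3) and RIPC replicate 2 (7), and in 6 of 7 in RIPC replicate 3. In neurons without Chat it was found in 14 of 17, 3 of 3, 1 of 2, 2 of 3 and 3 of 4 in the same order of animals. The difference of 22.3 percentage points had the same sign in 4 of 5 animals and was 0 in sham replicate 1 (exact two-sided sign-flip permutation p = 0.125). With 5 differences other than 0 the smallest p possible is 0.0625. Flipping the sign of a 0 changes nothing, so 0.125 was the smallest p these animals could give. Without the limit on assays the difference was 28.9 points (higher in 6 of 7 animals, exact permutation p = 0.0312, smallest possible 0.0156 if no difference is 0). Among neurons with more assays than the median neuron it was 0, since all of them had Ache. Neurons without Chat also had fewer other assays detected.

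Pools gave a similar picture. Of 88 pools, 68 had both transcripts, 11 had Ache alone, 4 had Chat alone and 5 had neither. The 4 pools with Chat alone came from naive replicate 1 (2 pools), RIPC replicate 2 and sham replicate 3. Both genes were absent from 3 of 8 pools of RIPC replicate 1.

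Among samples in which both were detected, the Ct values moved together. Pearson's r of raw Ct was 0.66 over 65 single neurons and 0.81 over 68 pools, both given as descriptions because samples of an animal share tissue and run, and because raw Ct follows the total yield of a sample. After centring on the sample the correlation of levels was lower, with r = 0.34 in single neurons and r = 0.42 in pools. In the 37 single neurons of naive replicate 3 alone it was 0.50. The Ct of Ache minus the Ct of Chat in the same neuron, which needs no centring, taken within runs, had a median of 0.87 cycles and ranged from -7.92 to 4.38. Ache had the later Ct in 51 of 65 single neurons and in 46 of 68 pools. The widest negative difference came from 1 neuron of sham replicate 4 in which Chat had a Ct of 24.3 and Ache a Ct of 16.4.

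Neurons without Chat had lower Ache levels where Ache was found. The level of Ache had a median of -0.32 in the 65 neurons that also had Chat and of -1.40 in the 24 that did not. In pools the medians were -0.07 in 68 and -1.12 in 11, of which 6 were from sham replicate 2 and 3 from RIPC replicate 1. The 1 such pool of naive replicate 2 had a higher Ache level (0.07) than the median of that animal's pools with Chat (-0.73). Most of these single neurons came from naive replicate 3, and no test was made over neurons.

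Treatment was compared first on the share of pools with a value. For Chat, all pools had a value in naive replicates 1 and 3 (3 and 11 pools) and 8 of 10 in naive replicate 2. In sham rats Chat was found in 6 of 7, 5 of 11, 11 of 11 and 16 of 17 pools of replicates 1 to 4. In RIPC rats it was found in 2 of 8, 8 of 8 and 2 of 2 pools. The 3 treatments overlapped fully, since each held animals with Chat in every pool or in all but 1, and the low values belonged to 1 RIPC animal and 1 sham animal. The mean share per animal was 93.3% ± 11.5 (SD, n = 3) in naive, 81.3% ± 24.6 (n = 4) in sham and 75.0% ± 43.3 (n = 3) in RIPC rats.

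**Figure D2:**
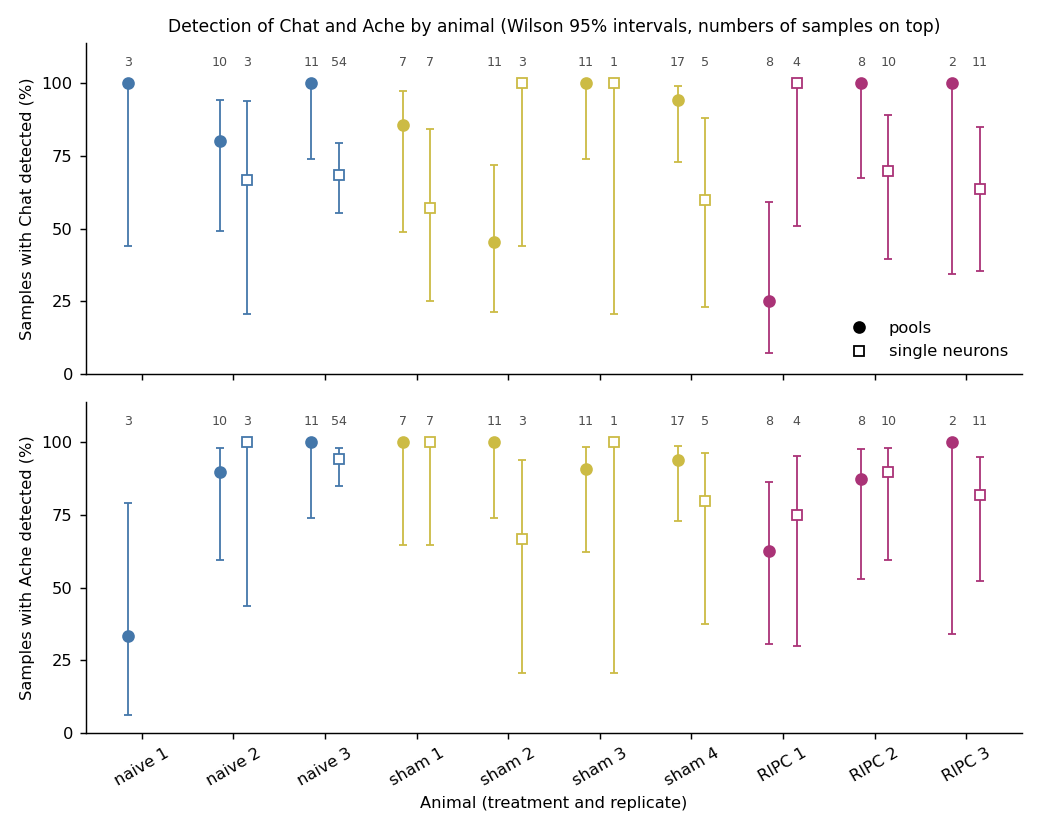
Share of samples with Chat (upper panel) and Ache (lower panel) detected in each animal, in percent, for pools (filled circles) and single neurons (open squares), with Wilson 95% intervals and the number of samples printed above each point. Chat was low in the pools of sham 2 and RIPC 1, and Ache in the 3 pools of naive 1.

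None of the Chat contrasts passed. RIPC minus sham was -6.32 percentage points (limma SE 18.2, adjusted p = 0.994), RIPC minus naive -18.3 points (adjusted p = 0.996) and sham minus naive -12.0 points (adjusted p = 0.932). Exact two-sided permutation over animals gave p = 0.714, 1 and 0.543, where 3 animals against 3 cannot go below 0.1 and 3 against 4 cannot go below 0.0286. Over the 130 genes tested by share of pools, limma called 0% in each of the 3 contrasts, with 1, 4 and 2 genes at an unadjusted p under 0.05 in the same order. Leaving out RIPC replicate 1 turned RIPC minus sham to 18.7 points and RIPC minus naive to 6.67 points. The pools of RIPC replicate 1 had a median of 56.5 assays with a value against 104 and 93.5 in the other two RIPC animals, and those of sham replicate 2 had 87. In the 1 pool of RIPC replicate 1 with values in at least 50% of the assays Chat was detected, while in sham replicate 2 it was detected in 4 of 7 such pools.

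Ache was found in nearly all pools of sham rats, in 7 of 7, 11 of 11, 10 of 11 and 16 of 17. In naive rats it was found in 1 of 3, 9 of 10 and 11 of 11 pools, and in RIPC rats in 5 of 8, 7 of 8 and 2 of 2. The lowest Ache shares were in naive replicate 1 and RIPC replicate 1, whose pools had the fewest values (medians of 48 and 56.5 assays). Chat was found in all 3 pools of naive replicate 1. The mean share was 74.4% ± 36.0 (SD, n = 3) in naive, 96.3% ± 4.52 (n = 4) in sham and 83.3% ± 19.1 (n = 3) in RIPC rats. RIPC minus sham was -12.9 points (limma SE 15.8, adjusted p = 0.994, exact permutation p = 0.2), sham minus naive 21.8 points (adjusted p = 0.932, exact permutation p = 0.2) and RIPC minus naive 8.89 points (adjusted p = 0.996, exact permutation p = 0.9). Without naive replicate 1, sham minus naive was 1.26 points and RIPC minus naive turned to -11.7 points. When pools rather than animals were counted, Fisher's exact test set 14 of 18 RIPC pools against 44 of 46 sham pools (p = 0.0478, two-sided), a p that takes pools of the same animal as independent. Fisher's exact p of the other contrasts of Ache and Chat ran from 0.0565 to 0.476. In pools with values in at least 50% of the assays, Ache was detected in 62 of 63.

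Level in pools was compared over animals with at least 2 detected pools. The mean level of Chat was -2.83, -0.95 and 0.35 in naive replicates 1 to 3, giving -1.14 ± 1.60 (SD, n = 3). It was -0.75, -0.09, -0.75 and 0.44 in sham replicates 1 to 4 (-0.29 ± 0.58, n = 4), and 0.18, 1.03 and -1.10 in RIPC replicates 1 to 3 (0.04 ± 1.07, n = 3). Naive replicate 1 had the lowest Chat level, but the groups overlapped. The differences were 0.32 cycles for RIPC minus sham (limma SE 0.76, adjusted p = 0.977, exact permutation p = 0.657), 1.18 for RIPC minus naive (SE 0.81, adjusted p = 0.931, exact permutation p = 0.5) and 0.86 for sham minus naive (SE 0.76, adjusted p = 0.984, exact permutation p = 0.429). Without naive replicate 1, RIPC minus naive was 0.33 cycles. The mean of sham replicate 1 held 1 pool with a Chat level of -8.63, and without that pool RIPC minus sham was -0.08 cycles.

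**Figure D3:**
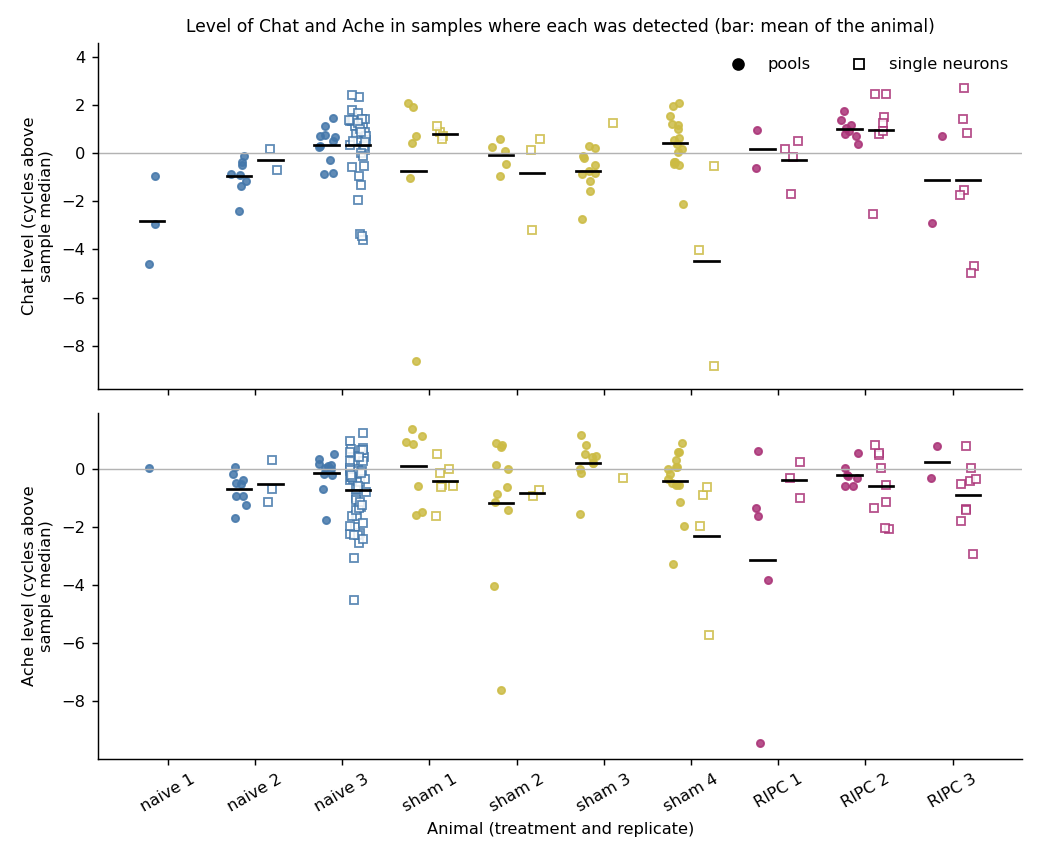
Level of Chat (upper panel) and Ache (lower panel) in cycles above the sample median of the 35 most detected genes, for pools (filled circles) and single neurons (open squares) of each animal. Bars mark the mean of an animal with more than 1 detected sample. The lowest Chat levels are 1 pool of sham 1 and 1 neuron of sham 4, and the lowest Ache level is 1 pool of RIPC 1.

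The mean level of Ache in pools was -0.70 and -0.14 in naive replicates 2 and 3 (-0.42 ± 0.40, SD, n = 2). Naive replicate 1, with 1 detected pool, gave no value. Sham replicates 1 to 4 had 0.09, -1.18, 0.21 and -0.41 (-0.32 ± 0.63, n = 4), and RIPC replicates 1 to 3 had -3.12, -0.20 and 0.24 (-1.03 ± 1.83, n = 3). The low RIPC mean came from replicate 1, in which the Ct of Ache reached 25.2. The differences were -0.70 cycles for RIPC minus sham (limma SE 0.78, adjusted p = 0.977, exact permutation p = 0.629), -0.60 for RIPC minus naive (adjusted p = 0.931, exact permutation p = 0.9) and 0.10 for sham minus naive (adjusted p = 0.984, exact permutation p = 0.933). Leaving out RIPC replicate 1 turned RIPC minus sham to 0.34 cycles and RIPC minus naive to 0.44 cycles, and leaving out only its pool with the latest Ache gave -0.18 and -0.11 cycles. Among the 99 genes tested by level in pools, limma called 0% in each contrast, with 3, 4 and 0 genes at an unadjusted p under 0.05 in the same order.

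The balance of the genes within a pool, as the Ct of Ache minus the Ct of Chat, was compared in the same way without any centring. Animal means were -0.15 and 0.49 in naive replicates 2 and 3, -0.95, -0.13, -0.76 and 0.85 in sham replicates 1 to 4, and 0.53, 1.32 and -1.34 in RIPC replicates 1 to 3. The values of each treatment spanned 0 and overlapped. RIPC minus sham was 0.42 cycles (exact permutation p = 0.629), sham minus naive -0.42 (exact permutation p = 0.667) and RIPC minus naive 0.00 (-0.000283, exact permutation p = 1). With 3 animals against 2 the smallest p possible is 0.1. Without the pool of sham replicate 1 with the latest Chat, whose difference was -7.14, RIPC minus sham was 0.11 and sham minus naive -0.11 cycles.

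In single neurons, RIPC was compared with sham over animals with at least 3 neurons. Chat was detected in 4 of 4, 7 of 10 and 7 of 11 neurons of RIPC replicates 1 to 3 and in 4 of 7, 3 of 3 and 3 of 5 neurons of sham replicates 1, 2 and 4. The means were 77.9% ± 19.4 (SD, n = 3) and 72.4% ± 24.0 (n = 3), a difference of 5.50 points (limma adjusted p = 0.916, exact permutation p = 0.6). With first runs only it was 0.683 points (limma adjusted p = 0.992), and with no limit on assays 21.2 points (adjusted p = 0.649). Ache was detected in 3 of 4, 9 of 10 and 9 of 11 RIPC neurons and in 7 of 7, 2 of 3 and 4 of 5 sham neurons. The means of 82.3% ± 7.51 and 82.2% ± 16.8 differed by 0.05 points (limma adjusted p = 0.997, exact permutation p = 1). Of the 111 genes tested by share in single neurons limma called 0%, with 7 at an unadjusted p under 0.05, and of the 83 tested by level 0%, with 2. With 3 animals against 3 an exact p cannot go below 0.1.

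The level of Chat in single neurons was -0.28, 0.99 and -1.13 in RIPC replicates 1 to 3 (mean -0.14 ± 1.06, SD, n = 3 animals) and 0.82, -0.81 and -4.46 in sham replicates 1, 2 and 4 (-1.49 ± 2.71, n = 3). Sham replicate 4 stood far below the others, on 3 neurons with a Ct of 15.9 to 24.3. The difference of 1.35 cycles (limma SE 1.31, adjusted p = 1.00, exact permutation p = 0.6) turned to -0.14 without that animal. The level of Ache was -0.37, -0.58 and -0.89 in RIPC and -0.43, -0.82 and -2.31 in sham animals, a difference of 0.57 cycles (SE 0.59, adjusted p = 1.00, exact permutation p = 0.6), which was 0.01 without sham replicate 4. Naive single neurons came almost all from 1 animal and are given as a description. Of the 54 neurons of naive replicate 3, 37 had Chat (68.5%) and 51 had Ache (94.4%), with a mean level of 0.34 and -0.74.

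Sides of the DMV were compared in 9 animals with at least 2 samples on each side, single neurons and pools together. Chat was detected in 75.4% ± 21.3 (SD, n = 9) of left samples and 73.9% ± 18.3 of right samples, and Ache in 88.0% ± 15.6 and 90.6% ± 8.44. The left minus right difference of Chat was 1.48 points (limma SE 7.16, adjusted p = 0.989, exact sign-flip permutation p = 0.875), and that of Ache was -2.54 points (SE 6.11, adjusted p = 0.979, exact sign-flip permutation p = 0.664). In level, left minus right was -0.32 cycles for Chat (SE 0.37, adjusted p = 0.918, exact sign-flip permutation p = 0.43) and 0.20 cycles for Ache (SE 0.28, adjusted p = 0.918, exact sign-flip permutation p = 0.5). In single neurons only (6 animals) left minus right was 13.6 points for the Chat share (limma SE 15.2) and 21.0 points for the Ache share (SE 12.6). In pools only (8 animals) it was -3.85 (SE 9.43) and -14.4 points (SE 9.38). The Ache values of single neurons and pools thus had opposite signs. In naive replicate 3, with the most single neurons, Ache was found in 25 of 27 on the left and 26 of 27 on the right. The level of Chat was -0.71 cycles (SE 0.62) in single neurons of 4 animals and -0.79 (SE 0.58) in pools of 7 animals, both larger in size than the mixed value, and that of Ache 0.11 (SE 0.46) and -0.02 (SE 0.29). None of these 8 values passed the test, and single neurons and pools were not tested against each other (limma adjusted p of 0.790 to 0.978). Of the 132 genes tested by share between sides limma called 0%, with 6 at an unadjusted p under 0.05, and of the 113 tested by level 0%, with 3.

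The small mean side difference of Chat covered wide differences in single animals. In naive rats Chat was less often detected on the left, in 5 of 7 left and 5 of 6 right samples of replicate 2 and in 20 of 33 left and 28 of 32 right samples of replicate 3. In sham rats it was more often detected on the left in 3 animals, in 6 of 6 against 4 of 8, 5 of 7 against 3 of 7 and 11 of 12 against 8 of 10 samples, and sham replicate 3 had Chat in all 8 left and 4 right samples. In RIPC rats the left minus right difference was -33.3, 0 and -4.76 points. The side difference averaged -19.4 points in naive, 22.6 in sham and -12.7 in RIPC rats. Set against each other, sham and RIPC differed by 35.3 points (exact two-sided permutation p = 0.0857, smallest possible 0.0286) and naive and sham by -42.0 points (exact permutation p = 0.133, smallest possible 0.0667). These were 2 of 24 such differences between treatments computed for the genes, measures and kinds of pair, of which 20 could not have reached p = 0.05 with this number of animals. The single neurons of naive replicate 3, the best sampled animal, had Chat in 14 of 27 on the left and 23 of 27 on the right, while their Ache was found in 25 and 26 of 27. In sham replicate 1 all 4 left single neurons and none of the 3 right ones had Chat.

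**Figure D4:**
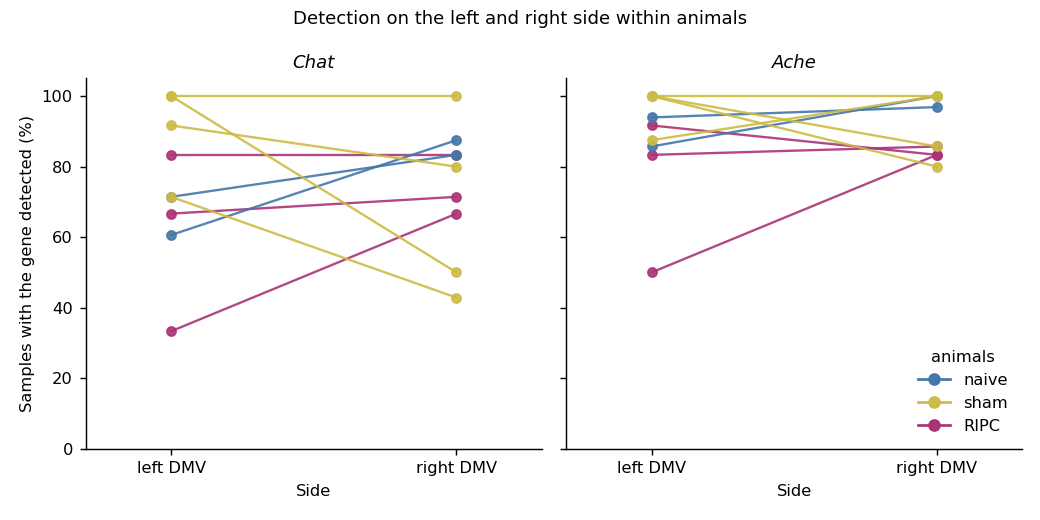
Share of samples with Chat (left panel) and Ache (right panel) detected on the left and right DMV, in percent, with 1 line for each of the 9 animals, coloured by treatment. Chat lines slope up to the right in both naive animals and down in 3 of the 4 sham animals. Ache lies at or above 80% except on the left side of 1 RIPC animal.

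Neither Chat nor Ache passed the test for more frequent detection in pools, which held 2 to 8 neurons, than in single neurons. Over the 8 animals with at least 2 of each kind, Chat was detected in 78.8% ± 28.4 (SD, n = 8) of pools and 73.2% ± 17 of single neurons, and Ache in 91.8% ± 12.8 and 86.0% ± 12.1. The differences were 5.54 points for Chat (limma SE 12.3, adjusted p = 0.727, exact sign-flip permutation p = 0.727) and 5.77 points for Ache (SE 7.55, adjusted p = 0.590, exact sign-flip permutation p = 0.344). On the same test limma called 23 of 132 genes, or 17.4%, all of them more often detected in pools. The median difference over all 132 genes was 15.2 points. The count of calls turned on single animals, with 57 of 129 genes without RIPC replicate 1, 5 of 132 without sham replicate 1, 12 of 132 without RIPC replicate 2, and 13 without naive replicate 2, naive replicate 3 or sham replicate 4. Among samples with values in at least 50% of the assays only 2 animals had enough of both kinds, and that fit called 0 of 111 genes (8 at an unadjusted p under 0.05), which says little about the calls over 8 animals. In level limma called 0% of 89 genes (8 at an unadjusted p under 0.05), with 0.49 cycles for Chat (SE 0.59, adjusted p = 0.847) and 0.15 for Ache (SE 0.45, adjusted p = 0.911) higher in pools. On raw Ct without centring, limma called 11 of 89 genes, all higher in pools, with a median difference of 1.18 cycles over all 89, and there the difference was 1.69 for Chat (limma adjusted p = 0.108) and 1.33 for Ache (0.164).

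The size of the Chat difference depended on the animal. Pools exceeded single neurons by 28.6 to 36.4 points in naive replicate 3, sham replicates 1 and 4 and RIPC replicates 2 and 3, and by 13.3 points in naive replicate 2. They fell short by 75.0 points in RIPC replicate 1 (2 of 8 pools against 4 of 4 neurons) and by 54.5 points in sham replicate 2 (5 of 11 against 3 of 3). These animals held 12 of the 16 pools without Chat, and in the other animals 65 of 69 pools had it (94.2%). Chat was detected in 7 of 12 pools of 2 neurons, 14 of 14 of 3, 20 of 23 of 4 and 28 of 36 of 5. Without RIPC replicate 1 and sham replicate 2 the counts were 6 of 7, 11 of 11, 17 of 18 and 28 of 30. 

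Detection of both genes went with the number of other assays that had a value. Split into 3 groups of nearly equal size by that number, single neurons with 43 to 62 other assays had Chat in 19 of 34 (55.9%, Wilson 95% interval 39.5% to 71.1%), those with 63 to 75 in 22 of 32 (68.8%) and those with 77 to 147 in 27 of 32 (84.4%, 68.2% to 93.1%). Ache was found in 26 of 34 (76.5%), 31 of 32 (96.9%) and 32 of 32 in the same groups. In pools Chat was found in 18 of 32 with 43 to 87 other assays, 30 of 31 with 89 to 103 and 24 of 25 with 104 to 133, and Ache in 24 of 32, 30 of 31 and 25 of 25. Of the 63 pools with values in at least 50% of the assays, 60 had Chat (95.2%) and 62 had Ache (98.4%). Of the 3 such pools without Chat, all were from sham replicate 2. In single neurons of that yield, 19 of 22 had Chat (86.4%) and 22 of 22 had Ache. In bulk pools, fewer cells with a transcript and less transcript per cell cannot be told apart.

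How repeatable a call was can be read from 5 single neurons that were run a second time. Chat and Ache had values in both runs of the 3 neurons of naive replicate 3. Their second minus first Ct was -0.93, -4.82 and 0.54 cycles for Chat and -0.88, -1.64 and -0.61 for Ache. In the neurons of RIPC replicate 2, Chat had no value in the first run of either, and Ct values of 11.9 and 18.7 in the second. Ache moved from 20.1 to 12.8 in 1 of them and from no value to 18.2 in the other. Repeat runs thus disagreed on detection in 2 of 5 neurons for Chat and in 1 of 5 for Ache. The first run of 1 RIPC neuron had 36 assays with a value, under the 42 needed, and among the 4 pairs in which both runs had enough, the runs disagreed in 1 for Chat and 0 for Ache, and the second minus first Ct of Ache reached -7.28 cycles in 1 neuron. Both runs entered as a mean, with 1 value enough for a detected call.

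Neurons with and without Chat were set side by side for other transmitter genes, as counts without a test. Gad1, the gene of the GABA-synthesizing enzyme GAD67, was detected in 18 of 68 neurons with Chat (26.5%) and 17 of 30 without (56.7%), and Gad2, which encodes GAD65, in 24 of 68 (35.3%) and 22 of 30 (73.3%). The median number of other assays with a value was 70.5 in neurons with Chat and 63 in those without, and its part in these counts was not tested. In naive replicate 3, Gad1 or Gad2 was found in 8 of 37 neurons with Chat and 14 of 17 without. In the other animals together the counts were 19 of 31 and 10 of 13, and over animals with both kinds of neuron the share was lower with Chat in 4, equal in 1 and higher in 1. Most of the contrast thus came from naive replicate 3. Both Chat and Ache were found together with Gad1 or Gad2 in 25 of 98 neurons, 40 neurons had Chat and Ache without a Gad gene, and 20 of the 24 neurons with a Gad gene and no Chat had Ache.

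Genes of catecholamine synthesis and activity were described in the same way. Th, the gene of tyrosine hydroxylase, which makes the precursor of dopamine and noradrenaline, was detected in 43 of 68 neurons with Chat (63.2%) and 12 of 30 without (40.0%), higher with Chat in 5 of 6 animals. Dbh, the gene of dopamine beta-hydroxylase, which makes noradrenaline from dopamine, was detected in 14 of 68 (20.6%) and 6 of 30 (20%). Fos, an immediate early gene that rises with neuronal activity, was detected in 13 of 68 (19.1%) and 1 of 30 (3.33%). All 14 neurons with Fos had Ache, and 13 of them had Chat. Ache, present in nearly every neuron, left only 9 neurons without it for comparison, of which 2 had Gad1, 5 Gad2, 4 Th, 1 Dbh and 0 Fos. These counts were not tested over animals, since 54 of the 98 neurons were of naive replicate 3. Nos1, the gene of neuronal nitric oxide synthase, was not on the panel.

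**Figure D5:**
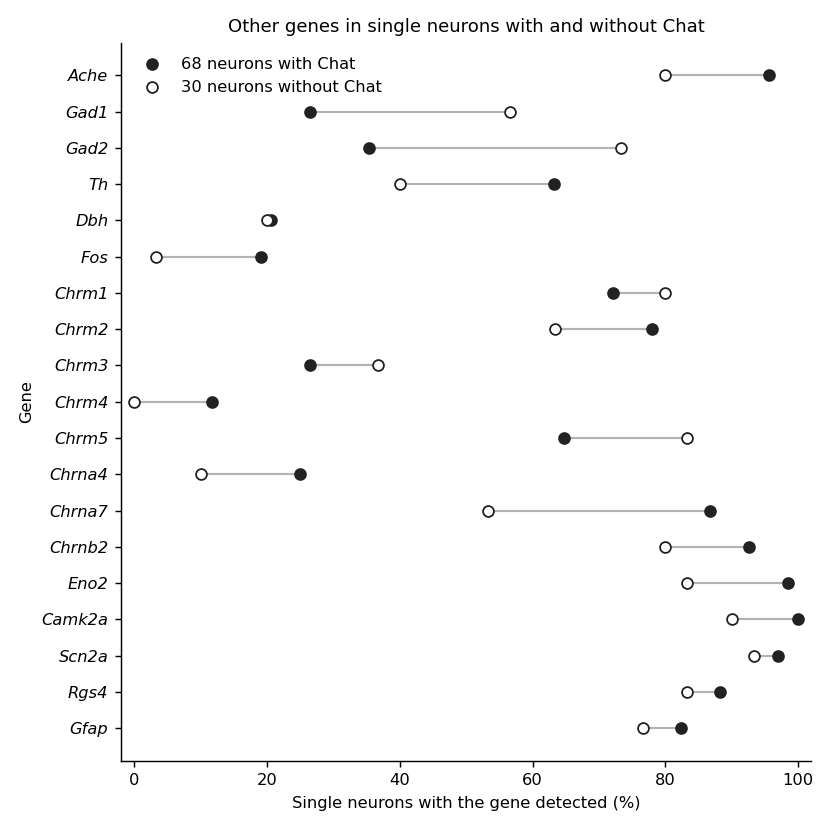
Share of single neurons with each gene detected, in percent, in the 68 neurons with Chat (filled circles) and the 30 without Chat (open circles), pooled over all animals. Gad1 and Gad2 lie further right in neurons without Chat, and Chrna7, Th and Fos further right in neurons with Chat.

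Receptors for acetylcholine were measured through 8 genes, the muscarinic receptors Chrm1 to Chrm5 and the nicotinic subunits Chrna4, Chrna7 and Chrnb2. Chrna6 was not on the panel. Chrnb2, which encodes the beta subunit of the common heteromeric nicotinic receptors, was detected most often, in 87 of 98 single neurons (88.8%) and 84 of 88 pools. Chrm4, an inhibitory muscarinic receptor, was detected least often, in 8 of 98 (8.16%) and 12 of 88. Chrna7, the subunit of homomeric nicotinic receptors, was found in 86.8% of the 68 neurons with Chat and 53.3% of the 30 without, and its share was higher with Chat in 6 of 6 animals. Chrm5 ran the other way, with 64.7% and 83.3%. No receptor gene passed the test in any of the 8 treatment contrasts or between sides, whether by share or by level, with 0 of 5 to 8 genes called in each, and the smallest adjusted p was 0.416 for Chrm3 in the level of pools, RIPC minus naive (-3.11 cycles, SE 1.06). Between pools and single neurons Chrm1 (27.2 points, limma SE 8.18, adjusted p = 0.0334) and Chrm5 (29.4 points, SE 7.57, adjusted p = 0.0190) were more often detected in pools, 2 of 8 receptor genes against the 17.4% called over all genes. At the limit of 50% of assays the fit held 2 animals, and there the difference was 23.3 points for Chrm1 (limma SE 21.6, adjusted p = 0.807) and 6.67 points for Chrm5 (SE 21.6, adjusted p = 0.947). With 1 animal left out the differences stayed near those over all 8 animals, at 22.9 to 31.9 points for Chrm1 and 25.5 to 33.5 for Chrm5, while some calls were lost. Chrm5 missed the threshold without naive replicate 2 (25.5 points, adjusted p = 0.0531) or sham replicate 1 (29.5 points, 0.0520), and Chrm1 missed it without any 1 of naive replicates 2 and 3, sham replicates 1 and 2 and RIPC replicates 2 and 3 (22.9 to 28.7 points, 0.0533 to 0.0865). Chrm1 also missed it with no limit on assays (24.5 points, 0.0590). The median difference of the 8 receptor genes was 21.3 points.

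Among the genes most like Chat in detection over the 98 single neurons were Hcn3 (phi = 0.41), a hyperpolarization-activated channel, and Gabra2 (0.40), a subunit of the GABA-A receptor. Ache ranked 25 among the 121 genes compared with Chat (phi = 0.25, where phi is the correlation of presence and absence), and the median over those genes was 0.07. For Ache the closest were Cacna1b (phi = 0.57) and Cacna1a (0.54), which encode pore subunits of voltage-gated calcium channels of nerve terminals, and Gabra2 (0.51). In level, over samples in which both genes had a value, Chat ran closest to Chrna7 (r = 0.70, 125 samples) and Cckar, a receptor for cholecystokinin (r = 0.67, 62 samples), with Ache at r = 0.36 over 133 samples, rank 10 of 122. Ache ran closest to Cacna1e, a calcium channel gene (r = 0.60, 163 samples), Actb, the gene of beta-actin (r = 0.49, 168 samples), and Cacna1b (r = 0.42, 164 samples). The median r over the genes compared was -0.16 for Chat and -0.10 for Ache. All of these share the samples, the yield of each sample and the centring, and they are descriptions without a test.

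Most markers of neurons were also detected somewhat more often in neurons with Chat. In neurons with and without Chat, in this order, Eno2 was detected in 98.5% and 83.3%, Camk2a in 100% and 90.0%, Scn2a, a sodium channel, in 97.1% and 93.3%, Rgs4, a regulator of G-protein signaling, in 88.2% and 83.3%, and Gfap in 82.4% and 76.7%. In pools Gfap was detected in 63 of 72 with Chat and 5 of 16 without. Eno2 was detected in 68 of 72 and 9 of 16, Camk2a in 70 and 12, and Rgs4 in 70 and 11 of them. Scn2a was detected in 71 of 72 and in all 16. Of the 16 pools without Chat, 12 came from RIPC replicate 1 and sham replicate 2. The part of astrocyte transcript in the values of Chat and Ache was not tested.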

How the data were processed

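The deposited table holds raw Ct values, which the authors exported from a Fluidigm BioMark run of EvaGreen/SYBR green RT-qPCR after preamplification of complementary DNA; undetected assays are empty. The deposited Ct values (unit: cycles, other than counts or log ratios) are not normalized. Primer sequences, and the chip on which each sample was run, are not given in the sources used here. Groups, animals, sides and cells per sample came from the labels, with animal as the replicate and numbered as there. The members and gene lists were chosen with earlier results of these data known.

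Duplicate assays were averaged, as were second runs of 5 samples. Samples needed values in at least 25% of the assays, which keeps 190 of 218 columns. The limit worded in the authors' methods is 50%, which keeps 84 here, but the total they give as passing is met at 25%, so 50% was run as an alternative. Level is the negative Ct set against the sample's median over the 35 most often detected genes. Each animal gave 1 share and, from at least 2 detected samples, 1 mean level. Treatments (3 groups in 1 fit, no covariates) and within-animal differences were fitted with limma 3.58.1 in R 4.3.3 across all genes detected in 10% to 95% of samples, or having levels from 2 or more animals of every group (4 animals for sides and sample types), two-sided, with Benjamini-Hochberg adjustment at 0.05. Where an animal lacked a value the fit used the others. Chat, Ache and their difference also had exact permutation tests, permuting animals, in Python 3.11.15 and scipy 1.17.1. Fits were tested on simulated data. Named genes were Chat, Ache, the acetylcholine receptor list, transmitter partners, and the 3 genes most like each member, of which 1 is not reported here. Intervals cover counting error only. Alternatives covered the limit on assays, centring, repeat runs, sample type, pool size, the unit and scale of the test, the replicate block and each animal left out.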

Additional observations from a re-analysis of the deposited data

Results flagged for a closer look

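Chat level in single neurons set 1 animal apart. In sham replicate 4 the mean level of Chat in pools exceeded that in its single neurons by 4.91 cycles, while the 7 other animals lay between -1.57 and 0.72. The gap to the nearest animal was 0.646 of the whole range over 8 animals, above the value that Dixon's rule gives for that number. The animal's value rests on 3 single neurons with Chat and 16 pools. Without it the mean pool minus single difference of Chat was -0.14 cycles. By chance about 1 in 20 groups would be marked, and 12 were examined.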

How the results depend on the processing

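The 28 results were recomputed under their alternatives, which gave 510 values in all, of which 459 kept direction and side of the threshold, 43 turned the direction, 5 gave 0 and 3 kept the direction with an unadjusted p under 0.05. The limma adjusted p of Chat and Ache stayed above 0.05 in each of these settings. Shares are in percentage points and levels in cycles. At the limit of 50% of assays the share in pools was 0 for RIPC minus naive in Chat and Ache, 10.7 and 2.78 for RIPC minus sham, and -2.78 for Ache in sham minus naive. There the Ache share in pool minus single (2 animals) and with minus without Chat (1 animal) was also 0, values that rest on too few animals to be read, as was the latter in neurons with more assays than the median, while with no limit it was 28.9. The level there was 0.36 for Ache in RIPC minus naive, -0.14 for Chat in RIPC minus sham and -0.00843 for Ache in left minus right, and the Ct of Ache minus the Ct of Chat gave -0.179 for RIPC minus sham and 0.0921 for sham minus naive. It was 1.02 for RIPC minus naive in pools of at least 4 cells. Leaving out the pool with the latest Chat, or that with the latest Ache, was chosen after seeing the data, as was centring without Ache, and among these the Chat level in RIPC minus sham turned to -0.0826 without the former. Counting pools instead of animals gave Ache shares of -9.72 for RIPC minus naive and -17.9 for RIPC minus sham (Fisher's exact p = 0.0478). The methods' t-test over pools gave 1.08 for the Chat level in RIPC minus naive (p = 0.032) and -0.00801 for Ache in sham minus naive. In the other contrasts its p ran from 0.174 to 0.982. Both tests take pools of an animal as independent. Over animals, the Chat level in RIPC minus naive had a limma adjusted p of 0.931. The Ache share of single neurons, RIPC minus sham, was -0.00566 on the arcsine scale, -0.32 with first runs only and -0.556 without a neuron whose title resembled those of another animal. Left minus right, Ache was 3.27 with no limit and 21 in single neurons, and in pools the Ache level was -0.0231 and the Chat share -3.85. The causes were not tested.

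Leaving out each animal in turn gave these ranges. The Chat share in pools ran from -18.7 to -0.056 for sham minus naive, -30.8 to 6.67 for RIPC minus naive and -18.8 to 18.7 for RIPC minus sham. The Chat level in pools ran from 0.0129 to 1.6 for sham minus naive, 0.334 to 1.92 for RIPC minus naive and -0.174 to 0.887 for RIPC minus sham. The Ache share in pools ran from 1.26 to 34.6 for sham minus naive, -11.7 to 21.7 for RIPC minus naive and -21.3 to -2.51 for RIPC minus sham. The Ache level in pools ran from -0.182 to 0.387 for sham minus naive, -1.24 to 0.444 for RIPC minus naive and -1.34 to 0.344 for RIPC minus sham. The Ct of Ache minus the Ct of Chat ran from -0.785 to -0.0977 for sham minus naive, -0.573 to 0.754 for RIPC minus naive and -0.154 to 1.17 for RIPC minus sham. RIPC minus sham in single neurons ran from -5.56 to 19.3 for the Chat share, -0.144 to 2.5 for the Chat level, -7.73 to 8.94 for the Ache share and 0.00954 to 0.953 for the Ache level. Left minus right ran from -4.58 to 5.83 for the Chat share, -0.603 to -0.152 for the Chat level, -5.35 to 1.31 for the Ache share and 0.00319 to 0.329 for the Ache level. Pool minus single ran from 1.14 to 17 for the Chat share, -0.141 to 0.783 for the Chat level, 1.84 to 8.38 for the Ache share and -0.0957 to 0.57 for the Ache level. The Ache share with minus without Chat ran from 15.4 to 27.9.

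Nothing in the labels ties same-numbered animals of different treatments to each other. Their deviations correlated at r = -0.367 to 0.365 by share, with 5 of 9 pairs over 0.1, among them all 3 pairs of number 1 (0.193, 0.296 and 0.15), and at -0.359 to 0.283 by level, with 4 of 9 over 0.1. Since some pairs fell short of 0.1, the numbers were not taken as pairing the animals. With the replicate number as a block, the Chat share of pools differed by -16.3 (sham minus naive), -18.3 (RIPC minus naive) and -2.06 (RIPC minus sham), and no call changed in any of the blocked fits.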
